A study of Salvia miltiorrhiza with 5 samples.

Results

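The WRKY unigenes described here are the 59 assembled transcripts of *Salvia miltiorrhiza* hairy roots that the study's list of elicitor-responsive transcription factors (TFs) assigns to the WRKY family, out of 55588 unigenes in all. That list holds 375 TFs and took a TF in when its RPKM value (reads per kilobase of unigene, scaled to the mapped reads) with methyl jasmonate (MeJA) or yeast extract (YE) was over 2-fold that of the control at a set false discovery rate. By the deposited values SmiContig29109 fell short of 2-fold in every library and was kept as listed. The ratios to the control therefore chose the members. They are given below as a description, with no test, and so are the counts drawn from them. Members are called by the names of the assembly, because the family assignment comes with no individual gene name, and no sequence of a unigene was at hand. The family itself could therefore not be checked against a WRKY domain.

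RNA was sequenced from 40-day-old hairy roots in shake flasks, which are root cultures grown from leaf pieces infected with the *A. tumefaciens* strain C58C1 (pRi A4). There were 5 libraries: the non-elicited control taken at 0 h, MeJA-1h and MeJA-6h from roots given 0.1 mM MeJA in ethanol for 1 h and 6 h, and YE-1h and YE-12h from roots given a yeast elicitor for 1 h and 12 h. Each library was the mixed RNA of 3 samples, so that every condition had 1 library and no difference could be set against the spread between cultures. The control was taken at the start, so effects of the ethanol and of the hours after treatment cannot be told apart from those of the elicitor.

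WRKY proteins are plant TFs named after the conserved amino acids of their DNA-binding domain, which also holds a zinc finger. They bind W-box elements in promoters, and many of their genes are switched on within hours by microbial molecules or by jasmonate, the hormone of wounding and defence. Some WRKY proteins activate and others repress their targets, defence genes, genes of secondary metabolism and other WRKY genes among them. In roots of *S. miltiorrhiza* the secondary metabolites of interest are the tanshinones, which are diterpenoids, and the phenolic acids.

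The libraries held 13395770 to 20358510 reads counted on unigenes, and the 59 members had 147 to 20292 reads each over the 5 libraries. Intervals beside ratios are exact (Clopper-Pearson) 95% intervals of the reads and cover counting error only. The 4 Tify unigenes of the same TF list, from the JAZ repressor family whose genes answer to jasmonate, were set against the MeJA label. The list took in only TFs raised with MeJA or YE in these libraries, so the rise of these unigenes is no independent check of the label. The most abundant of them had RPKM values of 39.3 in the control, 1475 and 504 after 1 h and 6 h of MeJA, and 68.6 and 32.8 after 1 h and 12 h of YE. CPS1, the enzyme of the first committed step to tanshinones, and CYP76AH1, which acts later in that pathway, had control RPKM values of 190 and 115, so genes of the labelled root tissue were measured. In such bulk RNA, a change in the share of a cell type and a change of RNA per cell cannot be told apart.

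Most WRKY unigenes were highest after 1 h of YE. In YE-1h 48 of the 59 were over 2-fold the control and all 59 were higher than the control. Over all unigenes with a ratio, 7.82% were over 2-fold and 8% were under 0.5-fold in this comparison, and no member was under 0.5-fold. In MeJA-1h 34 members were over 2-fold and 1 was under 0.5-fold, where all unigenes gave 7.61% and 12.2%. At the later times fewer members stood over 2-fold. There were 18 of 58 in MeJA-6h with 4 under 0.5-fold (6.9% and 13.5% of all unigenes), and 20 of 59 in YE-12h with none under 0.5-fold (4.41% and 7.23%). Since the members were picked for being over 2-fold, their excess over these shares of all unigenes is no result about the family.

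The median member was 4.51-fold the control in YE-1h, 2.28-fold in MeJA-1h, 1.72-fold in YE-12h and 1.64-fold in MeJA-6h. On the log2 scale these medians were 2.17, 1.19, 0.78 and 0.72, beside −0.16, −0.28, −0.16 and −0.24 over all unigenes. These values hold for scaling by the library total. With trimmed mean (TMM) scaling every log2 ratio to the control rose by 0.28 and 0.24 for MeJA at 1 h and 6 h, and by 0.15 and 0.16 for YE at 1 h and 12 h. The shares of all unigenes over 2-fold and under 0.5-fold then became 10.4% and 7.29%, 9.46% and 8.95%, 9.44% and 6.09%, and 5.84% and 5.01%. The members over 2-fold became 37, 27, 50 and 27 in the same order, with 2 under 0.5-fold left in MeJA-6h and none elsewhere.

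**Figure D1:**
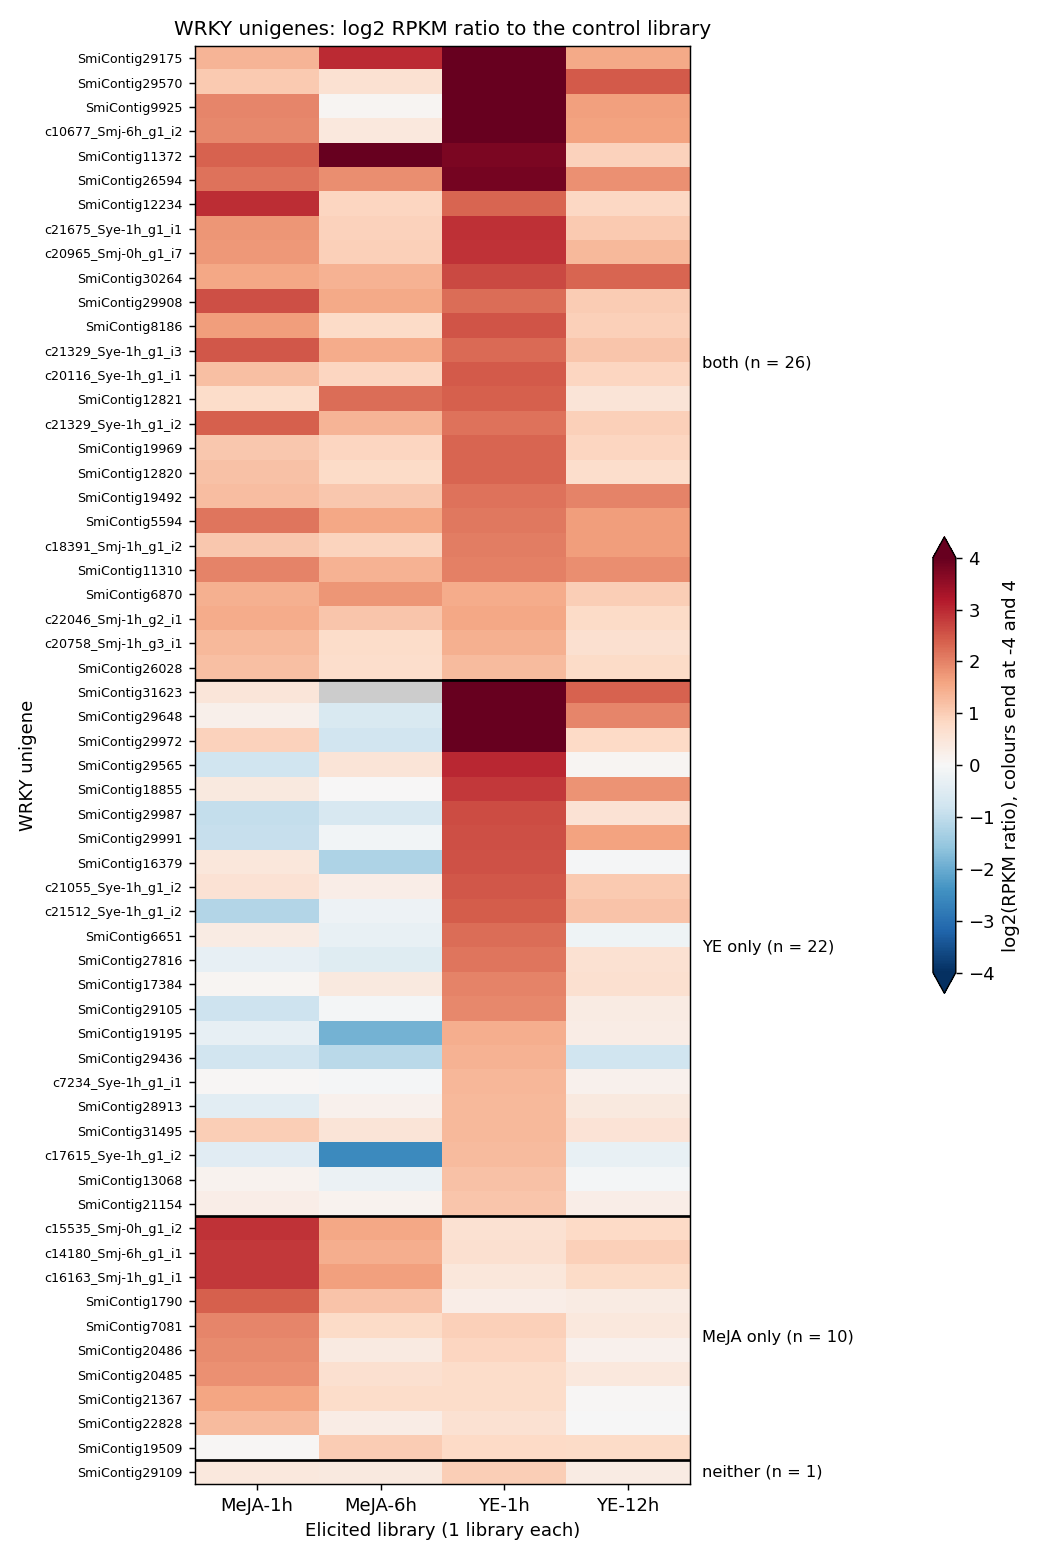
Log2 ratio of the RPKM value of each of the 59 WRKY unigenes (rows) in the 4 elicited libraries (columns, 1 library each) to the control. Red is higher and blue lower than the control, colours end at −4 and 4, and grey marks a ratio that was not computed. The column of YE-1h is red throughout, whereas the 22 members over 2-fold with YE only are pale, blue or grey in both MeJA columns.

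The 2-fold rule divided the members into classes by elicitor. Over 2-fold with both elicitors, at either time, were 26 members (44.1%), with YE only 22 (37.3%) and with MeJA only 10 (16.9%). The order of the larger classes is not firm, as a 3-fold threshold gave 15 with both and 21 with YE only. SmiContig29109 was over 2-fold with neither. It came closest in YE-1h, where its ratio was 1.97 (interval 1.70 to 2.3), from an RPKM value of 10.5 in the control to 20.8. Its values were 14.2 in MeJA-1h, 13.8 in MeJA-6h and 13.3 in YE-12h. The members just over the threshold by their largest ratio were SmiContig19509 at 2.00 in MeJA-6h, SmiContig21154 at 2.15 in YE-1h and SmiContig13068 at 2.25 in YE-1h. Class limits this near the threshold are limits of the rule: SmiContig31495 counted as YE only with a ratio of 1.98 (1.82 to 2.15) in MeJA-1h.

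Other TF families of the same list, picked by the same rule, were divided in other proportions. Among the 51 bHLH unigenes, which include partners of the JAZ repressors in other plants, 7 were over 2-fold with both elicitors, 6 with YE only and 36 (70.6%) with MeJA only. AP2-EREBP, the family of the ethylene response factors, had 11, 7 and 10 of 28. NAC, a plant TF family of stress and development, had 7, 6 and 14 of 27. The 316 TFs other than WRKY together had 86, 85 and 141, or 27.2%, 26.9% and 44.6%. These proportions are set side by side without a test, since they rest on the same 5 libraries and on members chosen by the values compared.

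**Figure D2:**
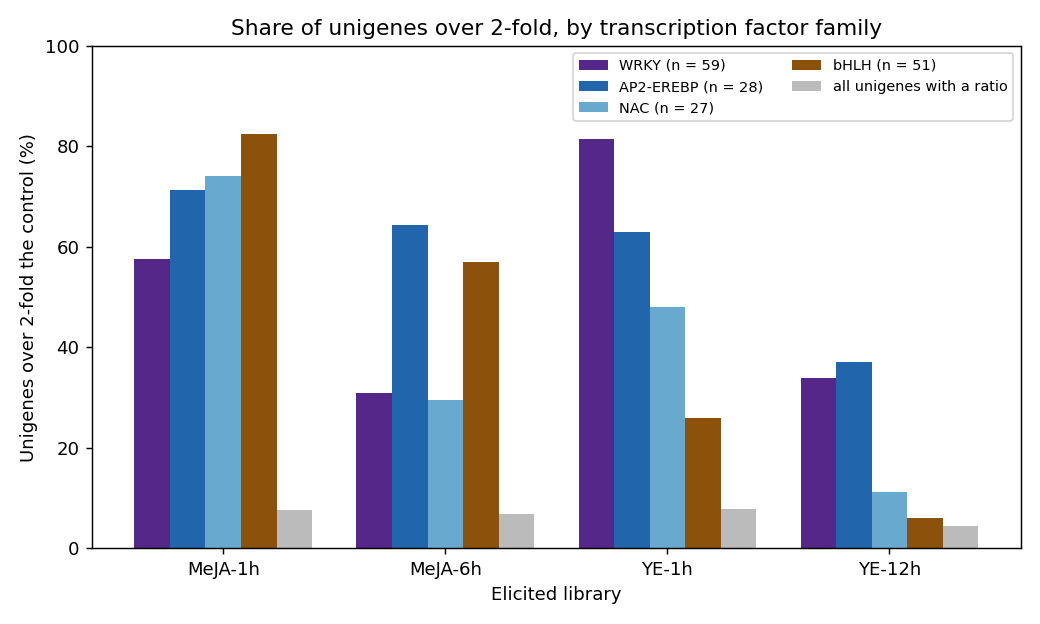
Percentage of the WRKY, AP2-EREBP, NAC and bHLH unigenes of the TF list, and of all unigenes with a ratio, that were over 2-fold the control in each elicited library. The WRKY bar is the tallest in YE-1h at 81.4%, while the bHLH bar is the tallest in MeJA-1h at 82.4% and stands at 26% in YE-1h. The families were chosen for being over 2-fold in some library, so only their profile over the libraries can be read.

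At the same time of 1 h the elicitors can be compared directly. WRKY unigenes were over 2-fold higher in YE-1h than in MeJA-1h in 33 cases and under 0.5-fold in 7, with 12% and 7.98% of all unigenes on either side. The intervals of 41 members lay over 1 and those of 13 under 1. All 7 members under 0.5-fold were of the MeJA-only class, which the class rule favours. No YE-only member could be among them, since all 22 were over 2-fold in YE-1h and none in MeJA-1h. Of the 26 members over 2-fold with both elicitors, 21 had the higher value in YE-1h. Both libraries took part in the choice of the members, so these counts too are a description. By the same measure 5 of the 51 bHLH unigenes were over 2-fold and 37 under 0.5-fold, that is over 2-fold higher with MeJA. These numbers were 8 and 14 of the 28 AP2-EREBP unigenes and 6 and 8 of the 27 NAC unigenes.

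**Figure D3:**
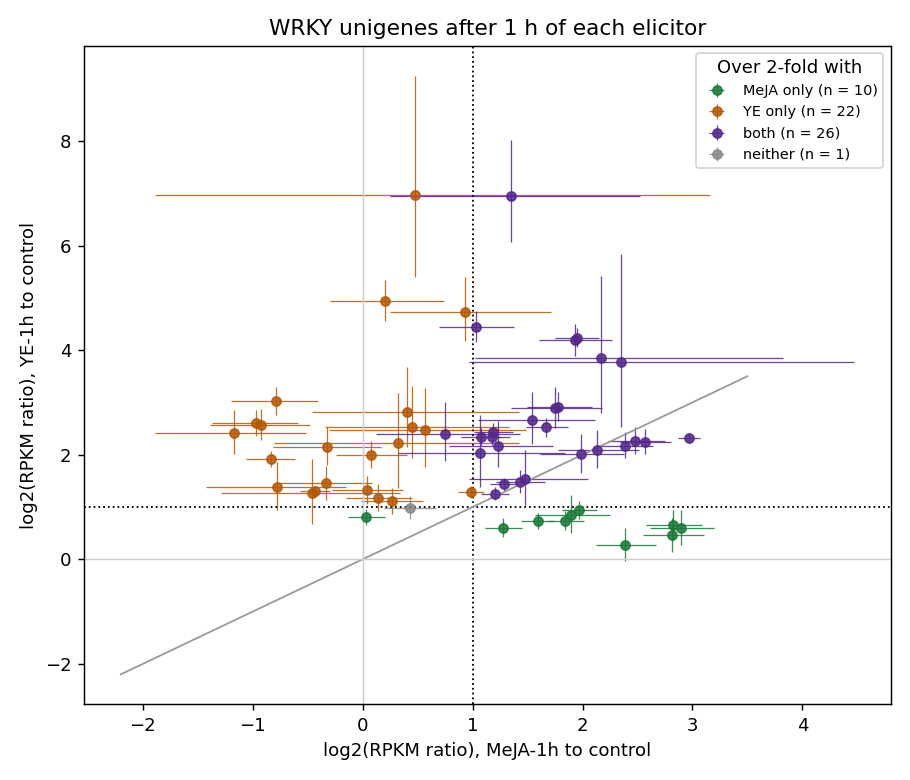
Log2 RPKM ratio to the control in MeJA-1h (x axis) and in YE-1h (y axis) of the 59 WRKY unigenes, coloured by class. Bars are 95% counting intervals, dotted lines mark 2-fold and the grey line equal ratios. Every point lies above 0 on the y axis, 10 lie left of 0 on the x axis, and the MeJA-only members lie below the dotted line of YE-1h. Both axes share the control library, so the scatter around the grey line is not independent of it.

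The largest ratios belonged to members with few reads in the control. Of SmiContig31623 there were 3 control reads, 5 and 0 reads after 1 h and 6 h of MeJA, and 532 and 23 reads after 1 h and 12 h of YE. Its RPKM values were 0.155, 0.215, 0, 19.3 and 0.792, and its ratio in YE-1h was 125 with an interval of 42.4 to 606. Nearly all reads of this member were thus in YE-1h. With 10 control reads, SmiContig29175 had RPKM values of 0.601 in the control, 1.53 and 4.77 after 1 h and 6 h of MeJA, and 74.6 and 1.73 after 1 h and 12 h of YE. Its ratios were 124 (67.3 to 259) in YE-1h and 7.93 (4.10 to 17.0) in MeJA-6h, so it was over 2-fold in all 4 elicited libraries while the value in YE-1h stood far above the rest. Among 43567 unigenes with at least 30 reads in YE-1h, SmiContig31623 had the 5th and SmiContig29175 the 6th largest ratio, an order that their wide intervals do not fix. In all, 9 members were among the 200 largest in YE-1h, and 0, 1 and 0 were among the 200 largest in MeJA-1h, MeJA-6h and YE-12h. Members made up 0.126% to 0.135% of the unigenes ranked in each library. They were chosen for ratios over 2-fold, which favours such places, so these counts are no result about the family.

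A further group combined a large ratio with a high level. SmiContig9925 had RPKM values of 11.6 in the control, 44.7 and 12.3 after 1 h and 6 h of MeJA, and 218 and 36.5 after 1 h and 12 h of YE, the highest level of any member in YE-1h. The YE-1h ratio was 18.8 (16.6 to 21.5), the MeJA-1h ratio 3.86 (3.37 to 4.44), and by 6 h of MeJA the level was back near the control at 1.06-fold (0.893 to 1.25). For c10677_Smj-6h_g1_i2 the values were 7.55, 28.8, 10.1, 137 and 23.3 in the same order, a profile like that of SmiContig9925 at a lower level, with ratios of 3.81 in MeJA-1h and 18.2 (14.8 to 22.6) in YE-1h. SmiContig29570 had 5.50, 11.3, 8.43, 120 and 30.2, and kept the largest ratio of any member in YE-12h, 5.49 (4.46 to 6.80). All 3 belong to 6 members that were over 2-fold at 1 h only with MeJA and at both times with YE.

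Members over 2-fold with YE only numbered 22, of which 16 were so at 1 h alone (early) and 6 at both times (lasting). SmiContig29648 was the lasting member with the highest level in YE-1h. Its RPKM values were 2.71 in the control, 3.13 and 1.78 after 1 h and 6 h of MeJA, and 82.8 and 10.6 after 1 h and 12 h of YE. With MeJA it was at 1.15-fold (0.813 to 1.67) at 1 h and 0.655-fold (0.427 to 0.987) at 6 h, and both YE libraries lay over the control. The ratios were 30.5 (23.5 to 40.7) in YE-1h and 3.89 (2.93 to 5.28) in YE-12h. Among the early members SmiContig29972 stood out with 1.20, 2.28, 0.706, 31.7 and 2.06, a ratio of 26.5 (18.0 to 42.3) in YE-1h that left 1.72 (1.08 to 2.93) by 12 h. Its MeJA-1h ratio of 1.91 had an interval from 1.19 to 3.28, so its class rests on few reads. The early members had YE-1h ratios from 2.15 upwards, with a median of 3.26.

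Within the YE-only class 10 of the 22 members were lower in MeJA-1h than in the control, and for 7 of them the interval lay under 1. Of all unigenes 70.5% were lower in MeJA-1h, 36.5% with an interval under 1, so the members of this class were not lower more often than unigenes at large. The lowest ratio was that of c21512_Sye-1h_g1_i2, whose RPKM values were 3.90 in the control, 1.73 and 3.42 after 1 h and 6 h of MeJA, and 20.7 and 8.56 after 1 h and 12 h of YE. It was 0.443-fold (0.270 to 0.701) in MeJA-1h and 5.30-fold (4.03 to 7.21) in YE-1h, opposite sides of the control at the same hour. SmiContig29987 (5.39, 2.76, 3.49, 32.9 and 8.03) and SmiContig29991 (4.93, 2.59, 4.53, 29.4 and 15.2) had MeJA-1h ratios of 0.511 (0.388 to 0.665) and 0.525 (0.382 to 0.717). The most abundant of the class in the control, SmiContig28913, had 42.0, 31.1, 47.1, 103 and 55.1. This member was at 0.741-fold (0.673 to 0.815) in MeJA-1h and 2.46-fold (2.28 to 2.65) in YE-1h. Between YE-1h and MeJA-1h, c21512_Sye-1h_g1_i2 differed 12.0-fold, SmiContig29987 11.9-fold and SmiContig29991 11.3-fold. Chosen after its values were seen, SmiContig29565 differed 14.0-fold (11.4 to 17.6) with RPKM values of 7.15, 4.14, 10.2, 58.0 and 7.49.

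In MeJA-6h the lowest members were of the YE-only class, which the class rule favours, as it keeps members over 2-fold with MeJA out. All 4 members under 0.5-fold there were among the 22 of this class, where all unigenes gave 13.5%. SmiContig19195 had RPKM values of 8.91 in the control, 7.09 and 2.38 after 1 h and 6 h of MeJA, and 24.4 and 11 after 1 h and 12 h of YE, and was 0.267-fold (0.173 to 0.406) in MeJA-6h. SmiContig29436 had 5.79, 3.37, 2.74, 15.2 and 3.35. It was below the control in every library but YE-1h, at 0.472-fold (0.285 to 0.743) in MeJA-6h and 0.578-fold (0.376 to 0.864) in YE-12h. The lowest ratio, 0.170 (0.0577 to 0.414), was that of c17615_Sye-1h_g1_i2 and rested on 6 reads in MeJA-6h against 30 in the control.

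MeJA-only members had control levels between 8.88 and 29.4 RPKM, so none of the 10 was rare before elicitation. The 4 lasting ones were over 5-fold the control in MeJA-1h and over 2-fold in MeJA-6h. Of these c15535_Smj-0h_g1_i2 had the largest ratio, with RPKM values of 10 in the control, 74.3 and 28.9 after 1 h and 6 h of MeJA, and 15.1 and 17.5 after 1 h and 12 h of YE. The ratio was 7.43 (6.14 to 9.18) in MeJA-1h and 2.89 (2.35 to 3.62) in MeJA-6h. The values of c14180_Smj-6h_g1_i1 were 12.6, 89.6, 34.9, 19.9 and 24.7, those of c16163_Smj-1h_g1_i1 were 9.77, 68.9, 30.7, 13.5 and 16.5, and those of SmiContig1790 were 11.1, 57.7, 24.6, 13.4 and 13.9. In all 4 the MeJA-1h library was the highest and MeJA-6h the next, and YE-1h lay at 0.196 to 0.233 of MeJA-1h. Their YE-1h ratios to the control were 1.21 to 1.57 and their YE-12h ratios 1.25 to 1.95, and the YE-1h interval of SmiContig1790, 0.982 to 1.52, held 1.

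The 5 early MeJA-only members reached 2.42-fold to 3.91-fold in MeJA-1h and 1.24-fold to 1.71-fold in MeJA-6h. SmiContig20485 had RPKM values of 12.4 in the control, 44.3 and 19.3 after 1 h and 6 h of MeJA, and 20.6 and 16.7 after 1 h and 12 h of YE, and its neighbour in the numbering, SmiContig20486, had 8.88, 33.0, 11.5, 16.0 and 10.1. Both were highest in MeJA-1h and second in YE-1h, with YE-1h ratios of 1.67 (1.47 to 1.90) and 1.80 (1.41 to 2.34). SmiContig19509 alone of the class was late, with 29.4, 30.2, 59.0, 51.6 and 49.7. The elicited libraries other than MeJA-1h were 1.69-fold to 2.00-fold its control, and the interval in MeJA-6h, 1.80 to 2.22, holds the threshold that set its class.

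The 26 members over 2-fold with both elicitors held the member with the highest RPKM value in any library. SmiContig12234 had RPKM values of 40.4 in the control, 315 and 73.9 after 1 h and 6 h of MeJA, and 202 and 71.9 after 1 h and 12 h of YE, so that both libraries of 1 h stood over both later ones. Its ratios were 7.80 (7.29 to 8.37) in MeJA-1h, the largest of any member there, and 4.99 (4.66 to 5.36) in YE-1h. SmiContig26028, at 34.0, 78.1, 55.5, 80.9 and 57.7, had equal values with both elicitors at 1 h within counting error, as the ratio of YE-1h to MeJA-1h was 1.04 (0.975 to 1.10). SmiContig12820 had 25.2, 57.1, 42.9, 127 and 40.8, with YE-1h at 2.23-fold (2.08 to 2.38) the MeJA-1h value.

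By timing these 26 members were mixed. Over 2-fold at 1 h alone with either elicitor were 7, at both times with either elicitor 8, early with MeJA and lasting with YE 6, and lasting with MeJA and early with YE 4. SmiContig12821 was late with MeJA and early with YE. The lasting members SmiContig30264 (2.09, 6.09, 5.46, 13.2 and 10.4) and SmiContig19492 (2.70, 6.31, 5.65, 12.2 and 10.7) changed little between the times of an elicitor. Their YE-12h ratios to the control, 4.99 (3.65 to 7.25) and 3.97 (2.99 to 5.50), were 0.793 and 0.880 of the YE-1h values.

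Further members, named after their values were seen, complete these classes. Among those over 2-fold with both elicitors, SmiContig26594 had a large ratio at a low level, with RPKM values of 0.834 in the control, 3.74 and 3.05 with MeJA, and 12 and 2.96 with YE. Its YE-1h ratio of 14.3 (6.92 to 42.9) rests on 6 control reads. The shortest members, SmiContig11310 (335 bp) and SmiContig5594 (392 bp), did not favour either elicitor at 1 h, with YE-1h at 1.02 and 0.975 of MeJA-1h. SmiContig11310 went from 15.8 in the control to 62.6 in MeJA-1h and 63.7 in YE-1h, and SmiContig5594 from 14.4 to 62.9 and 61.4. The longest, SmiContig8186 (2321 bp), went from 9.07 to 28.9 and 52.2, so YE-1h was the higher there.

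In the YE-only class, SmiContig17384 had the highest level in YE-1h, 110, from 27.7 in the control, with 29.2 and 36.6 in the MeJA libraries. SmiContig29105 went from 23.1 in the control to 12.9 in MeJA-1h and 87.4 in YE-1h. SmiContig18855, a lasting member, stayed low throughout, at 0.753 in the control, 0.995 and 0.759 with MeJA, and 5.33 and 2.63 with YE. Control levels of the class ran from 0.155 to 42.0, with a median of 5.52, and those of the MeJA-only class had a median of 12.5.

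Some members stood high with MeJA at 6 h. SmiContig11372 had RPKM values of 0.626 in the control, 3.19 and 9.97 after 1 h and 6 h of MeJA, and 8.54 and 1.19 after 1 h and 12 h of YE. Its ratio of 15.9 (6.71 to 66.9) in MeJA-6h was the largest of any member in that library and rests on 4 control reads. SmiContig6870 had 14.9, 40.2, 50.2, 41.7 and 29.4, with ratios of 2.70, 3.37, 2.80 and 1.97, a narrow span over all elicited libraries. SmiContig12821 had 2.23, 3.75, 10.5, 11.8 and 3.20, and was 4.72-fold (3.26 to 7.26) in MeJA-6h and 5.26-fold (3.65 to 8.02) in YE-1h. MeJA-6h held the highest value of 3 members, SmiContig11372, SmiContig6870 and SmiContig19509.

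**Figure D4:**
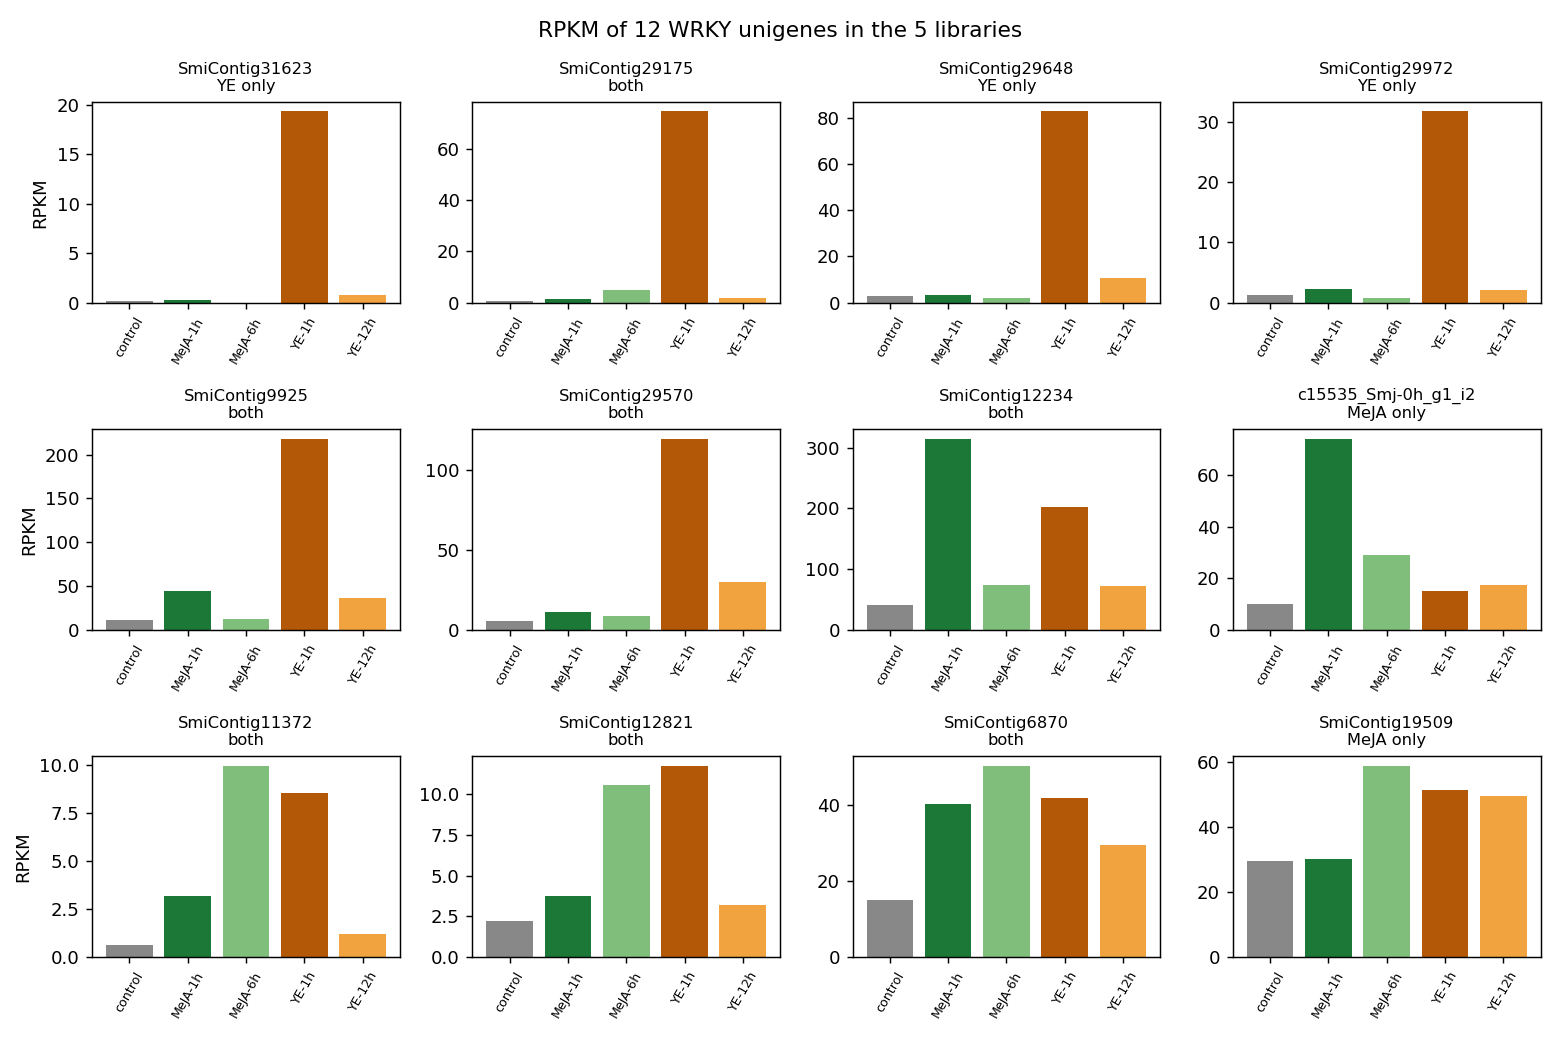
RPKM values of 12 WRKY unigenes in the 5 libraries, 1 bar per library, with the class over each panel. Each panel has its own y axis from 0. SmiContig31623, SmiContig29175, SmiContig29648 and SmiContig29972 show a single tall bar in YE-1h, SmiContig12234 and c15535_Smj-0h_g1_i2 peak in MeJA-1h, and SmiContig11372, SmiContig6870 and SmiContig19509 peak in MeJA-6h.

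At the later times most levels were lower again. The later time was 12 h with YE and 6 h with MeJA, so the declines with the elicitors are not compared. From YE-1h to YE-12h, 35 of the 59 members went to under 0.5-fold and none to over 2-fold, where all unigenes gave 9.37% and 5.93%. Most members were over 2-fold in YE-1h, a library that took part in their choice, which favours a fall from it. The excess over all unigenes is therefore no result about the family. The median member was at 0.429 of its YE-1h value. SmiContig29175 went furthest, to 0.0233 (0.0165 to 0.0309), followed by SmiContig31623 at 0.0410 (0.0254 to 0.0614) and SmiContig29972 at 0.0650 (0.0497 to 0.0838). Only 4 members were higher in YE-12h than in YE-1h, and these were the 4 lasting MeJA-only members, at 1.03-fold to 1.24-fold. For c14180_Smj-6h_g1_i1 and c16163_Smj-1h_g1_i1 the interval lay over 1, at 1.24 (1.07 to 1.44) and 1.23 (1.03 to 1.46).

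From MeJA-1h to MeJA-6h, 16 members went to under 0.5-fold and 4 to over 2-fold, with 7.87% and 6.26% of all unigenes on either side. Both libraries took part in the choice of the members, so these counts are a description and no result about the family. The median member was at 0.721 of its MeJA-1h value. SmiContig12234 went to 0.234 (0.223 to 0.246) and SmiContig9925 to 0.274 (0.241 to 0.311). The ratio of c17615_Sye-1h_g1_i2, 0.233, had an interval of 0.0791 to 0.584. Higher at 6 h were SmiContig11372 at 3.13-fold (2.03 to 5.08), SmiContig29175 at 3.12-fold (2.07 to 4.93) and SmiContig12821 at 2.81-fold (2.11 to 3.83). SmiContig29565, at 2.47-fold (1.93 to 3.19), had been under the control at 1 h. In YE-12h 20 members were still over 2-fold the control, all of them over 2-fold in YE-1h as well, and no member was over 2-fold in YE-12h alone.

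Summed over the 59 members, the RPKM values came to 669 in the control, 1910 and 1143 after 1 h and 6 h of MeJA, and 2847 and 1167 after 1 h and 12 h of YE. The sum in YE-1h was 4.25-fold and that in MeJA-1h 2.85-fold the control, while both later libraries lay at 1.71-fold and 1.74-fold. Reads of the 59 members made up 0.0889% of the control library and 0.377% of YE-1h. Any WRKY unigene not on the list is left out of these sums and shares. The members were chosen for being over the control, so the rise of their sum is no result about the family. No single transcript made up the pool, since 10 to 12 unigenes were needed for 50% of it in every library. SmiContig12234 gave the largest single part, 16.5% of the sum in MeJA-1h, and led in MeJA-6h and YE-12h too. SmiContig9925 led in YE-1h with 7.67%, and SmiContig28913 in the control with 6.27%.

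The class rule itself makes the YE-only sum higher with YE and the MeJA-only sum higher with MeJA, so the sums by class only give the size of each part of the pool. YE-only members summed to 211 in the control, 217 and 220 after 1 h and 6 h of MeJA, and 837 and 296 after 1 h and 12 h of YE. MeJA-only members summed to 148, 563, 291, 241 and 208. In MeJA-1h the YE-only members gave 11.4% of the pool and the MeJA-only members 29.5%, and in YE-1h these shares were 29.4% and 8.46%. The 26 members of both held 44.9% in the control and 54.0% to 61.4% in the elicited libraries.

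**Figure D5:**
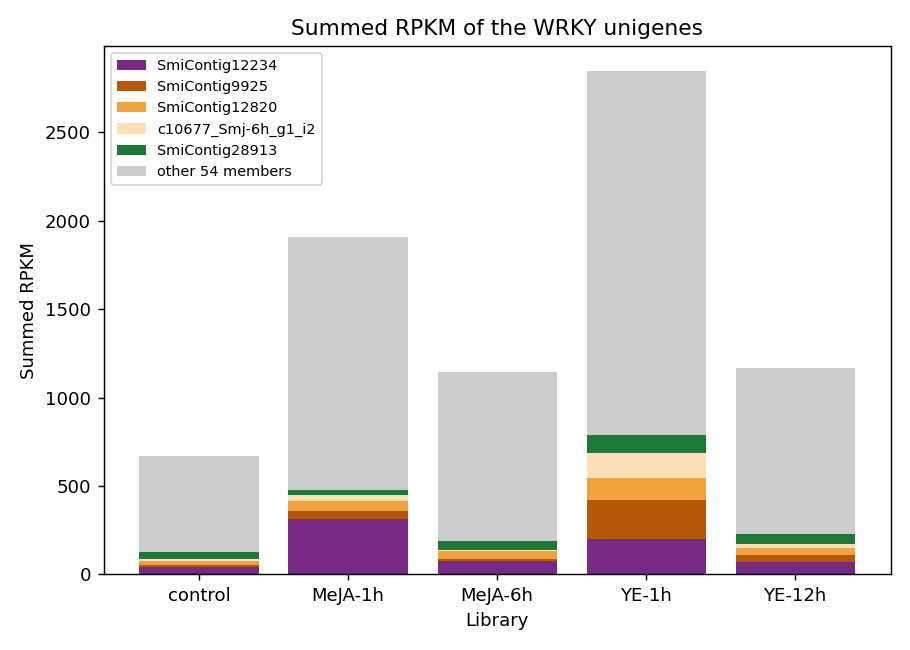
Summed RPKM values of the 59 WRKY unigenes in each library, with 5 abundant members in colour and the others in grey. The bar of YE-1h reaches 2847 and that of MeJA-1h 1910, against 669 in the control. The purple part, SmiContig12234, is largest in MeJA-1h, and the dark orange part, SmiContig9925, in YE-1h.

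The library of the highest value was YE-1h for 42 members, MeJA-1h for 14 and MeJA-6h for 3. None was highest in YE-12h, where 14% of all unigenes were highest, and none in the control (36.9%), which the choice of the members for being over the control fixed almost by itself. The order of all 5 libraries most often seen was YE-1h, MeJA-1h, YE-12h, MeJA-6h and control from high to low, in 10 members (0.748% of all unigenes). Each pathway gene is represented here by 1 unigene, of 2 for KSL1 and CPS1, 3 for CYP76AH1 and CYP76AH3 and 4 for RAS1. Of the tanshinone pathway, KSL1, the diterpene synthase that follows CPS1, had the order YE-1h, YE-12h, MeJA-1h, MeJA-6h and control, which 7 members shared (0.637% of all unigenes). CPS1 had YE-1h, MeJA-1h, MeJA-6h, YE-12h and control, shared by 5 members (0.655%). The choice of the members for being over the control favours orders that end in the control, as these do. Their excess over the shares of all unigenes is therefore no result about the family. The P450 genes CYP76AH1 and CYP76AH3 were highest in YE-12h, where no member was. Of the phenolic acid pathway TAT1, HPPR1, RAS1 and CYP98A14 were highest in MeJA-6h, and 0 members shared the order of any of them. Only 0.47%, 0.412%, 0.928% and 1.02% of all unigenes had these orders, so 0 among so few members is no result about the family. Orders of 5 single libraries are a description, and neighbours in an order can lie within counting error of each other.

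The lists of pathway genes can be set beside the family. In YE-1h 49 of 66 tanshinone unigenes were over 2-fold and 2 of 35 phenolic acid unigenes, beside the 48 of 59 WRKY unigenes. In MeJA-1h the numbers were 30 of 66, 26 of 36 and 34 of 59, in MeJA-6h 18 of 65, 33 of 37 and 18 of 58, and in YE-12h 26 of 65, 1 of 36 and 20 of 59. The pathway lists were put together with these libraries in view, and the counts share the control, so they are given side by side only.

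Without sequences, copies or isoforms of the same gene could not be told apart by more than names and profiles. c21329_Sye-1h_g1_i2 and c21329_Sye-1h_g1_i3 carry the name of 1 assembly component. Their RPKM values were 8.58 and 7.53 in the control, 44.9 and 42.0 in MeJA-1h, 22.0 and 21.1 in MeJA-6h, 38.7 and 36.0 in YE-1h and 16.6 and 16.2 in YE-12h. The ratio of the pair varied 1.11-fold over the libraries, so that reads of a shared stretch could have been split between them. Over the 46 members with at least 30 reads in every library, 13 of 1035 pairs kept a ratio within 1.25-fold over all 5 libraries. They join 16 members into 6 groups, among them SmiContig12820 with SmiContig19969 and c20116_Sye-1h_g1_i1, and c14180_Smj-6h_g1_i1 with c16163_Smj-1h_g1_i1 and c15535_Smj-0h_g1_i2. With each group counted as 1 there would be 49 profiles. Neighbouring names do not make a copy: the ratio of SmiContig12820 to SmiContig12821 varied 3.74-fold. Unigene lengths were 335 to 2321 bp with a median of 1371 bp, and 20 members were under 1000 bp.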

How the data were processed

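The members, the gene lists and the rule for named members were chosen with earlier results of these data known. Per the study's methods, reads were filtered with NGS QC toolkit (v 2.3), assembled de novo with Trinity (K-mer of 25) and compared with the help of Bowtie. The counting program is not given in the sources used here. The sample labels describe the extraction with the word for another, animal tissue, whereas their tissue field and the methods give hairy roots.

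The authors deposited estimated counts per unigene as whole numbers. In 43.5% of 85 low counts the reads implied by the RPKM value were at least 0.1 above the count, and in 0% over 0.1 below it, so decimals appear to have been dropped. The design had assumed plain counts. The deposited RPKM values are relative to unigene length and library total and were used unchanged. Unigene lengths were computed from both tables.

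The library totals were 13395770 reads for the control, 16070622 and 15789097 for MeJA at 1 h and 6 h, and 19055712 and 20358510 for YE at 1 h and 12 h. A ratio divides the RPKM values of 2 libraries, and values resting on at most 3 reads were raised to those of 3 reads (at 1000 bp, an RPKM value of 0.224 for the control and 0.147 for YE-12h). No ratio was formed when both were at or under 3 reads. Over 2-fold means a ratio over 2, and under 0.5-fold the reverse. The background is every unigene with over 3 reads in 1 of the 2 libraries. No test of a condition was possible with 1 library each.

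Named members are those with the 4 largest ratios (at least 30 reads in the elicited library) and the 3 lowest (at least 30 reads in the control) in each elicited library, and the 4 highest levels in the control and in YE-1h. They also include the 3 extremes each way of the direct comparisons, members with 3 control reads or fewer, neighbours by name, the 3 nearest to the threshold on each side and classes of 5 or fewer. This gave 35 members. Others named in the text were chosen after their values were seen. A table of 42046 *S. miltiorrhiza* genes matched 0 unigene names.

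Alternatives were TMM scaling, size factors of DESeq2 1.42.0, other fold thresholds and floors, a read filter, read tests of edgeR 4.0.16 (binomTest, and exactTest with an assumed biological coefficient of variation, BCV, of 0.2 or 0.4), and summing of related unigenes. The read tests compare single libraries and were not checked on simulated data. The functions for ratios, floors and counting intervals were checked on simulated counts. R 4.3.3, scipy 1.17.1, pandas 2.3.3, numpy 2.4.6 and matplotlib 3.10.9 were used, the last 4 under Python 3.11.15.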

Additional observations from a re-analysis of the deposited data

Results flagged for a closer look

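In 6 members of the YE-only class the level lay over the control in YE-1h and under it in MeJA-1h. Their counting intervals left out equality on both sides under library total and TMM scaling. For SmiContig29436, at 0.582-fold in MeJA-1h and 2.62-fold in YE-1h, this held with the library total but not with TMM scaling. The log2 ratio in MeJA-1h was −1.17 for c21512_Sye-1h_g1_i2, beside 2.41 in YE-1h. For SmiContig29987 it was −0.97 beside 2.61, and for SmiContig29991 −0.93 beside 2.57. For SmiContig29105 it was −0.84 beside 1.92, for SmiContig29565 −0.79 beside 3.02 and for SmiContig28913 −0.43 beside 1.30. With TMM scaling the MeJA-1h values were −0.90, −0.69, −0.65, −0.56, −0.51 and −0.16 in the order of naming. Of all unigenes 36.5% had a MeJA-1h interval under 1 with the library total, so this side is common at large. The share of all unigenes that met both conditions was not computed. Each side is 1 library, and the difference between the elicitors was not tested.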

How the results depend on the processing

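No paired analysis was possible because each condition has 1 library. No median changed sign. The order of the largest classes changed: the 26 members with both elicitors outnumbered the 22 with YE only, but the counts were 23 and 25 with a pseudocount of 1 RPKM, 15 and 21 at 3-fold, 21 and 23 with the counting bound, 19 and 24 at a BCV of 0.2, and 20 and 21 with near-identical profiles summed. The medians of MeJA-6h and YE-12h also changed order under TMM (0.956 and 0.943) and DESeq2 scaling (0.959 and 0.949). Raising control RPKM values under 1 to 1, or summing unigenes of 1 assembly component, left each count within 1.5 times its value. Requiring an FDR under 0.01 in the read test did so too, but the study's list had used such a limit to choose the members. A filter of at least 100 reads could change no count, as all 59 members pass it. The largest ratio of a member moved past its counting interval upwards in 15 of 59 with TMM and 17 with DESeq2 scaling, and downwards in 7 with the pseudocount and 1 with the control floor. Both scalings left 0 members in neither class and put the median log2 ratio at 1.47 in MeJA-1h. A pseudocount of 1 RPKM gave 2 in neither class.

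A 1.5-fold threshold gave 32 members over it in MeJA-6h, 38 in YE-12h, 1 with MeJA only, 0 with neither, and 9 higher and 27 lower in MeJA-6h than in MeJA-1h. A 3-fold threshold gave 21 and 6 for MeJA at 1 h and 6 h, 13 for YE at 12 h, 15 with both, 14 with neither, 4 lower in YE-1h than in MeJA-1h, 2 higher and 5 lower in MeJA-6h than in MeJA-1h, and 18 lower in YE-12h than in YE-1h. With the counting bound past 2-fold there were 11 in MeJA-6h, 11 in YE-12h, 6 with neither, 4 lower in YE-1h than in MeJA-1h and 10 lower in MeJA-6h than in MeJA-1h. The shares of all unigenes under these 3 rules were not computed, so the counts only show how the calls depend on the rule.

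The exact test with an assumed BCV of 0.2 gave 9 in YE-12h (1.24% of all unigenes), 7 with neither, 4 lower in YE-1h than in MeJA-1h (4.09%), and 1 higher (1.07%) and 4 lower (1.57%) in MeJA-6h than in MeJA-1h. With a BCV of 0.4 it left 0 members and 1 member for MeJA at 1 h and 6 h, and 8 and 0 for YE at 1 h and 12 h, thus 0 with both, 8 with YE only, 1 with MeJA only and 50 with neither. Between libraries it left 9 higher and 0 lower in YE-1h than in MeJA-1h, 0 either way between the MeJA times and 2 lower in YE-12h than in YE-1h. Of all unigenes, 0.566% and 0.412% passed for MeJA and 0.347% and 0.0778% for YE in the same order, 0.242% and 0.536% higher and lower in YE-1h than in MeJA-1h, 0.0163% and 0.00905% between the MeJA times and 0.0271% lower in YE-12h. These tests use the values that chose the members and lend them no support. The real variation between cultures was not measured. Summing near-identical profiles, chosen after seeing the data, gave 4 lower in YE-1h than in MeJA-1h and a median log2 ratio of 0.463 in MeJA-6h.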
